A study of Mus musculus with 12 samples.

Results

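The 9 genes described here encode transcription factors that are used by effector Treg cells: *Prdm1*, *Irf4*, *Batf*, *Maf*, *Gata3*, *Rora*, *Bcl6*, *Nfil3* and *Id2*. They were picked by name, but with earlier results of these data known. All 9 were measured among the 22180 genes that had a transcript cluster of their own. A transcript cluster is a set of probes that gives 1 value on this array, and it may have 1 gene symbol, several or none. The arrays held 41345 transcript clusters in all. *Maf* and *Gata3* had 2 each, of which the brighter was used.

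Treg cells are CD4+ T cells that restrain other immune cells under the control of the transcription factor Foxp3. Part of them take on an effector state in tissues and after antigen, with more of the suppressive cytokine IL-10 and of receptors for tissues and inflamed sites. Batf pairs with Jun proteins and binds DNA together with Irf4, and both are needed in mice for Blimp-1, the product of *Prdm1*. Maf drives *Il10*, Bcl6 and Blimp-1 oppose each other in many lymphocytes, Gata3 and Rora serve Treg cells of skin and gut, Id2 blocks the DNA binding of E proteins, and Nfil3 is a repressor with a basic leucine zipper.

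The study asked how Treg cells change when they lose Lkb1, a kinase encoded by *Stk11*, or the TGF-β receptor chain encoded by *Tgfbr2*. RNA of CD4+YFP+ Treg cells from spleen and lymph nodes was hybridized to 12 Affymetrix arrays, 3 for each of 4 genotypes. All 4 genotypes carry a YFP-Cre fusion at *Foxp3*, so that the sort and the deletion both depend on that allele. Foxp3Cre/+ and Foxp3Cre/+Lkb1f/f mice are labelled female, and since *Foxp3* is X-linked these heterozygous animals also keep Treg cells that use the intact allele and are not sorted. Foxp3Cre and Foxp3CreTgfbr2 f/f mice are labelled male. Replicates are biological according to the labels, which give neither the age of the mice nor whether an array held 1 animal or a pool. Values are log2 signals as the authors deposited them, from which the median of the same array was subtracted, so that 0 is the middle transcript cluster of the array and 1 unit is a doubling.

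The 12 arrays did not form 1 even set. On 8 arrays, 2 per genotype, the deposited median lay between 5.48 and 5.60, and on the other 4 at about 6.3. These 4 higher-intensity arrays were those labelled Foxp3Cre/+ replicate 3, Foxp3Cre/+Lkb1f/f replicate 3, Foxp3Cre replicate 3 and Foxp3CreTgfbr2 f/f replicate 1. They were also the 4 arrays on which *Xist* and the Y-linked *Eif2s3y*, *Kdm5d* and *Uty* went against the labelled sex (*Xist* below the array median on the 2 labelled female, and at 4.54 and 4.70 on the 2 labelled male), whereas the 8 lower-intensity arrays matched it. How these arrays came to differ from their labels was not tested, and neither was whether they belong to the other experiment. If they do, every value over 6 or 12 arrays mixes the experiments. In the higher-intensity set, with 1 array of each genotype, the difference of *Maf* was 0.02 between the arrays labelled for Lkb1 and -1.70 between those labelled for Tgfbr2, beside -1.62 and 0.04 on the lower-intensity arrays. That of *Batf* was 0.61 and -0.53, beside -0.87 and 0.64. That of *Prdm1* was -0.26 and -0.30, beside -1.46 and a value near 0. Both values of the higher-intensity set lay closer to the other comparison for *Maf* and *Batf*, and 1 of the 2 did for *Prdm1* (3 genes chosen after their values were seen). Among the other members both did for *Nfil3* and *Id2* and 1 of the 2 for *Rora* and *Bcl6*. Neither did for *Irf4* (-0.60 and -0.16, beside -0.41 and -0.15) and *Gata3* (0.11 and 0.24, beside 0.08 and 0.23). Genotypes were kept as labelled, and the members are given over all arrays as labelled and again over the 8 lower-intensity arrays.

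*Stk11* lay 2.96, 2.90 and 3.15 above the array median on the arrays labelled Foxp3Cre/+ and 2.68, 2.33 and 3.27 on those labelled Foxp3Cre/+Lkb1f/f. *Tgfbr2* lay at 3.04, 2.71 and 3.48 on the arrays labelled Foxp3Cre and at 3.55, 2.51 and 2.31 on those labelled Foxp3CreTgfbr2 f/f. In both cases the genotypes overlapped over all arrays, whereas on the 8 lower-intensity arrays both knockout arrays lay below both controls, with a difference of -0.43 for *Stk11* (standard error 0.20, adjusted p = 0.88 in limma) and -0.47 for *Tgfbr2* (standard error 0.26, adjusted p = 1.00 in limma). Among the higher-intensity arrays *Stk11* was lowest, at 2.78, on Foxp3CreTgfbr2 f/f replicate 1. *Tgfbr2* was lowest among them, at 2.71, on Foxp3Cre/+Lkb1f/f replicate 3, beside 3.25 on Foxp3Cre/+ replicate 3. *Tgfbr2* was also at 2.37 on Foxp3Cre/+Lkb1f/f replicate 2, a lower-intensity array. What these single arrays mean for the labels was not tested. Neither the exons lost from the floxed alleles nor the positions of the probes were given, so neither gene can settle the labels. *Foxp3* itself was measured between 5.59 and 5.88 on all 12 arrays, and the summed signal of 12 Treg and T cell genes between 8.84 and 9.18, as the sort should give. The summed signal of macrophage and monocyte genes, which belong to cells outside the sort gate, was 7.54 on Foxp3Cre/+ replicate 2 and between 3.60 and 5.38 on the other 11 arrays.

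Sequences upstream of the start site are shown for *Prdm1*, *Irf4* and *Batf*, the 3 genes linked in 1 pathway. RefSeq (build GRCm38.p6) gave 250 bases before the start for 8 of the 9 genes, with 2 starts for *Bcl6*, and *Maf* was not in the table. Batf binds AP-1 sites with a Jun partner. The pattern TGANTCA was taken as a loose AP-1 motif, since N leaves the middle base open. This pattern, the IRF motif (GAAA, 2 bases of any kind, GAAA), the STAT motif TTCNNNGAA and the TATA box TATAAA were searched on both strands. Capitals mark a match. The *Prdm1* sequence lies at chr10:44458749-44458998 (minus strand), that of *Irf4* at chr13:30748983-30749232 (plus strand) and that of *Batf* at chr12:85686470-85686719 (plus strand). Each is written 5′ to 3′ and ends at the base before the start site.
Prdm1: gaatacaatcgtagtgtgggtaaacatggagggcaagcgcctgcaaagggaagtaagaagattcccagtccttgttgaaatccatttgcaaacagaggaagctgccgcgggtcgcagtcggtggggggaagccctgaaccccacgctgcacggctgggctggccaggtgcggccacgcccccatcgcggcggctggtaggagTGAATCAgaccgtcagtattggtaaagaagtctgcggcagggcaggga
Irf4: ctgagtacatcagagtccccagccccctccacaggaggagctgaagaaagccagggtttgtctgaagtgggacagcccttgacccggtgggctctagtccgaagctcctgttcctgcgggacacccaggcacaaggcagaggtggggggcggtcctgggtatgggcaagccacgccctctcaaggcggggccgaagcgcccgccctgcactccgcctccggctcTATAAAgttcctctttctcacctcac
Batf: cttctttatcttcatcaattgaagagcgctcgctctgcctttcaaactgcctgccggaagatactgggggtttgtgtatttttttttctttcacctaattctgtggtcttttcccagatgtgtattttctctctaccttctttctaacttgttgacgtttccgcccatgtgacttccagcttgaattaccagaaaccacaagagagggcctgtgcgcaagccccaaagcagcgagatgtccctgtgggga
*Prdm1* held 1 match to the loose AP-1 motif, TGAATCA with A as the open base, 48 bases before its start. This loose motif is in 6.75% of all 32851 such promoter sequences of the mouse. *Irf4* held a TATA box, as 12.4% do, and *Batf* none of the 4 motifs. Among the other genes, *Bcl6* held 1 STAT match before one start and 3 before the other, against 7.02% of all promoter sequences with any. The IRF motif, in 2.98% of all, was in none of the 8 genes. The motifs did not overlap each other at these sites. A match is a description of the letters only.

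Loss of Lkb1 was the first comparison, 3 arrays of Foxp3Cre/+Lkb1f/f against 3 of Foxp3Cre/+. Of the 9 genes 7 had a lower mean in the knockout (53.1% of all transcript clusters did), *Maf* and *Prdm1* by about 1 unit each, and *Gata3* and *Bcl6* a higher one. None passed the test, an adjusted p under 0.05 from limma after Benjamini-Hochberg adjustment across the whole array, and no other transcript cluster did (0 of 41345, 0.0%). At an unadjusted p under 0.05 stood 1 of the 9, *Irf4*, against 1.12% of all transcript clusters. With 3 against 3 arrays a two-sided exact permutation test cannot go below p = 0.10. In simulated data 1% of shifts of 1 unit passed in this limma fit, so a missing call does not show equal levels. Fewer Treg cells of the effector kind and less of an RNA per cell cannot be told apart in such bulk samples.

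*Prdm1* encodes Blimp-1, a repressor that marks effector Treg cells and is required in mice for their IL-10. It lay at 2.30, 2.55 and 2.49 on the Foxp3Cre/+ arrays and at 0.31, 1.62 and 2.23 on the Foxp3Cre/+Lkb1f/f arrays. All 3 knockout arrays were below all 3 control arrays, and replicate 1 of the knockout was by far the lowest. The mean difference was -1.06 (standard error 0.46, adjusted p = 1.00 in limma, 95% interval -2.15 to 0.04), and the exact permutation p was 0.10, the smallest possible. Without Foxp3Cre/+Lkb1f/f replicate 1 the difference was -0.52. On the lower-intensity arrays it was -1.46 (standard error 0.40, adjusted p = 0.71 in limma), and -0.80 in that fit without knockout replicate 1.

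*Irf4*, which is induced by antigen receptor signals, stood at 3.04, 3.25 and 2.93 in Foxp3Cre/+ and at 2.71, 2.76 and 2.34 in Foxp3Cre/+Lkb1f/f. The genotypes again did not overlap, and the knockout arrays lay closer to each other than for *Prdm1*. The difference came to -0.47 (standard error 0.19, adjusted p = 1.00 in limma, exact permutation p = 0.10), with -0.41 (adjusted p = 0.92 in limma) on the lower-intensity arrays and -0.60 from the 1 array of each genotype in the higher-intensity set. *Irf4* and *Prdm1* were the 2 of 9 genes without overlap in this direction, against 2.05% of all transcript clusters, and none lay wholly above (1.76%).

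*Batf*, the AP-1 family partner of Irf4, gave 3.11, 2.96 and 3.40 in Foxp3Cre/+ and 2.06, 2.26 and 4.01 in Foxp3Cre/+Lkb1f/f. The knockout arrays split: replicates 1 and 2 were the lowest of the 6 and replicate 3, a higher-intensity array, the highest. Over the 6 arrays the difference was -0.38 (standard error 0.50, adjusted p = 1.00 in limma), and it was -0.02 without knockout replicate 1. The lower-intensity arrays gave -0.87 (standard error 0.15, 95% interval -1.24 to -0.51), still with an adjusted p of 0.38 in limma. In the higher-intensity set, with 1 array of each genotype, it was 0.61, in the opposite direction.

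*Maf* encodes c-Maf, an activator of *Il10*. Its values were 3.72, 4.04 and 3.29 in Foxp3Cre/+ and 1.22, 3.29 and 3.31 in Foxp3Cre/+Lkb1f/f. Here 1 array stood apart, again knockout replicate 1, and the genotypes overlapped. The difference of -1.07 (standard error 0.57, adjusted p = 1.00 in limma) was -0.38 without that array. With the lower-intensity arrays it was -1.62 (standard error 0.58, adjusted p = 0.78 in limma), and -0.59 in that fit without knockout replicate 1. The second transcript cluster of *Maf* gave -1.34 over 6 arrays and -2.17 on the lower-intensity arrays. There both knockout arrays (-0.26 and 1.24) lay below both controls (2.26 and 3.05), so knockout replicate 2 was low as well. The higher-intensity knockout array (3.06) lay above its control (2.73).

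*Id2*, which blocks E proteins, stood at 2.71, 3.52 and 1.95 in Foxp3Cre/+ and at 2.36, 2.15 and 1.97 in Foxp3Cre/+Lkb1f/f. Its control arrays spanned more than the knockout arrays, and the highest of them, replicate 2, was the array with the high macrophage signal. The difference was -0.57 (standard error 0.39, adjusted p = 1.00 in limma) and became -0.17 without that array. From the lower-intensity arrays it was -0.86 (standard error 0.28, adjusted p = 0.74 in limma), and -0.46 in that fit without Foxp3Cre/+ replicate 2. The part of macrophage RNA in this difference was not tested.

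*Nfil3*, the repressor with a basic leucine zipper, was measured at 4.04, 3.36 and 2.05 in Foxp3Cre/+ and at 3.25, 2.82 and 2.29 in Foxp3Cre/+Lkb1f/f. The lowest *Nfil3* value of each of the 4 genotypes was on its higher-intensity array. The difference was -0.37 over 6 arrays (standard error 0.51) and -0.67 over the 8 lower-intensity arrays (standard error 0.29, adjusted p = 0.85 in limma).

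*Rora*, a nuclear receptor of tissue Treg cells, gave 2.15, 1.70 and 1.45 in Foxp3Cre/+ and 1.66, 1.42 and 1.60 in Foxp3Cre/+Lkb1f/f, a difference of -0.21 (standard error 0.22). The genotypes overlapped over all arrays. *Gata3* gave 2.36, 2.03 and 2.53 against 2.50, 2.05 and 2.65, a difference of 0.09 (95% interval -0.46 to 0.64). *Bcl6*, the factor of follicular T cells, gave 1.16, 1.58 and 1.99 against 2.16, 1.48 and 1.89, a difference of 0.27 (95% interval -0.40 to 0.93). Both intervals reach past a 1.5-fold difference, so equal levels are not shown. The *Rora* difference was -0.01 and that of *Bcl6* 0.057 without Foxp3Cre/+ replicate 1. The 3 differences on the lower-intensity arrays were -0.39, 0.08 and 0.45.

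**Figure D1:**
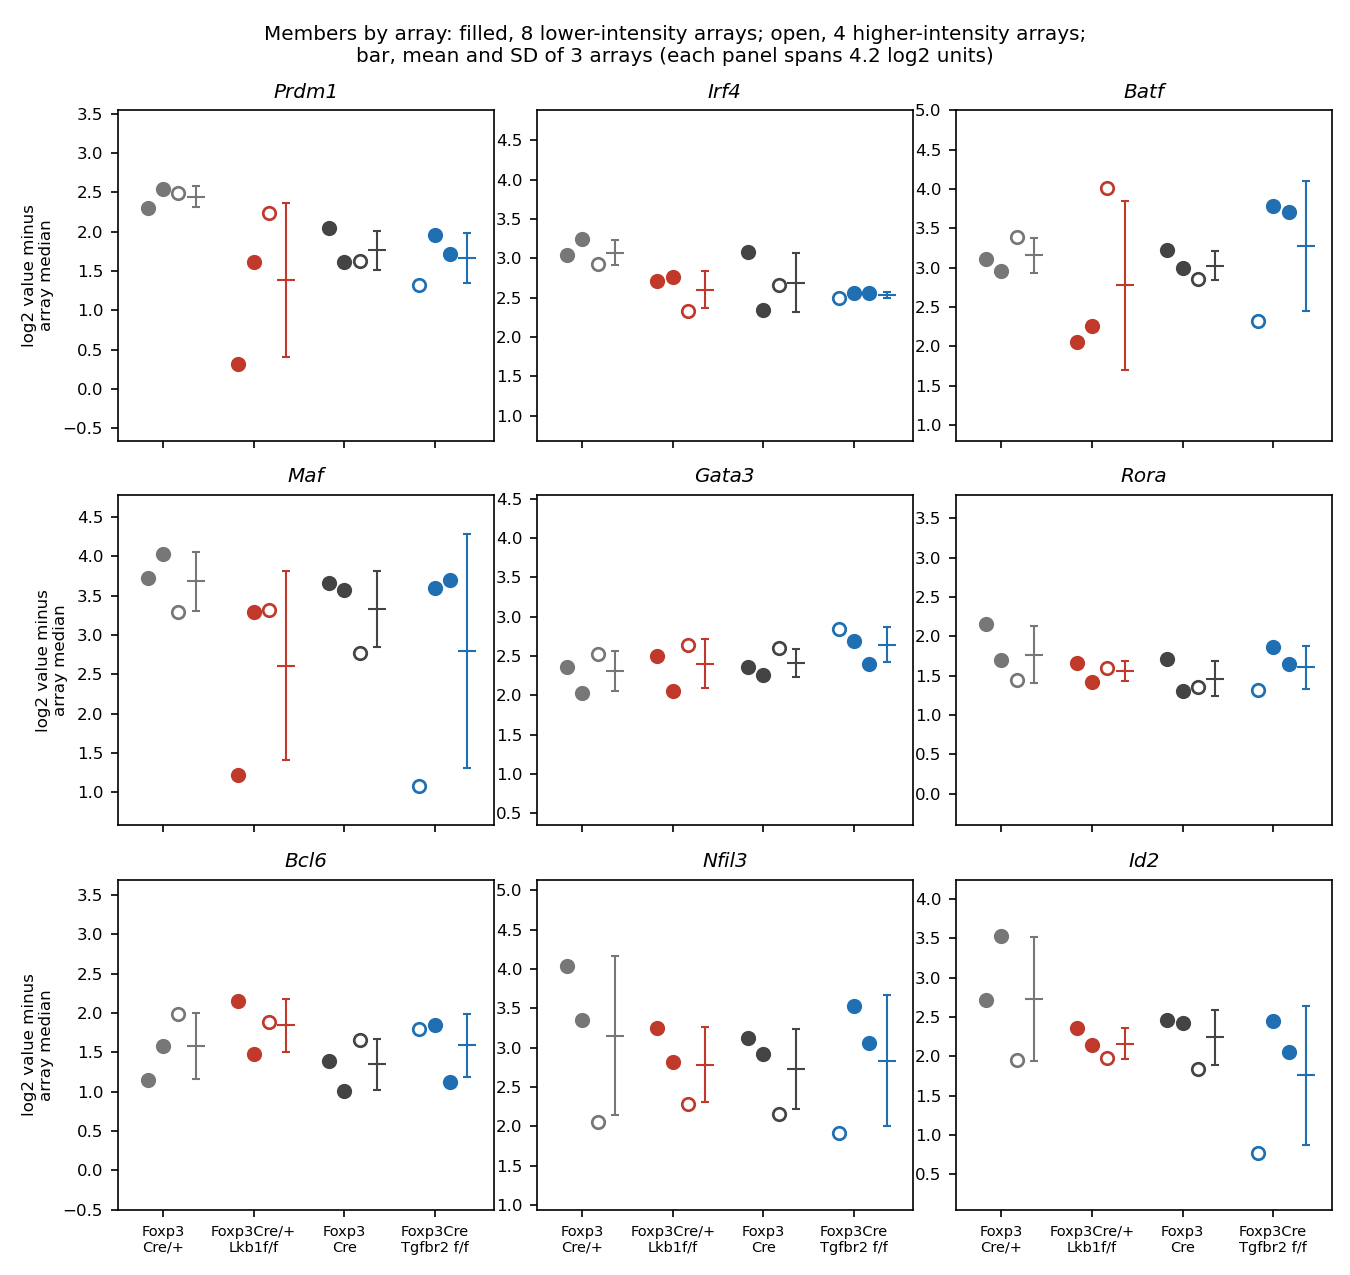
Each point is 1 array, as its log2 value minus the array median, for the 4 genotypes; filled points are the 8 lower-intensity arrays and open points the 4 higher-intensity arrays, and the bar is the mean and SD of 3 arrays. For Prdm1 and Irf4 the 3 Foxp3Cre/+Lkb1f/f arrays sit below the 3 Foxp3Cre/+ arrays, whereas for Batf the open points lie on the other side of the controls from the filled ones in both knockouts.

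The second comparison set 3 arrays of Foxp3CreTgfbr2 f/f against 3 of Foxp3Cre. No gene of the 9 passed the test and no transcript cluster did (0.0%), with 0 of the 9 at an unadjusted p under 0.05 against 1.71% of all. Of the 9 genes 4 had a lower mean (46.9% of all) and 5 a higher one, and none was without overlap in either direction, against 2.13% of all transcript clusters lower and 2.81% higher. The 3 largest differences in size were those of *Maf*, *Id2* and *Batf*.

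*Maf* stood at 3.66, 3.57 and 2.78 in Foxp3Cre and at 1.08, 3.60 and 3.70 in Foxp3CreTgfbr2 f/f. *Id2* stood at 2.47, 2.42 and 1.84 against 0.77, 2.45 and 2.05. In both the low value was that of knockout replicate 1, a higher-intensity array, and the other knockout arrays lay near the controls. The differences of -0.54 (standard error 0.70) and -0.48 (standard error 0.43) became 0.32 and 0.01 without that array. Those on the lower-intensity arrays were 0.04 and -0.19 (both adjusted p = 1.00 in limma).

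*Batf* gave 3.22, 3.00 and 2.85 in Foxp3Cre and 2.32, 3.78 and 3.71 in Foxp3CreTgfbr2 f/f. Knockout replicates 2 and 3 were above all controls, and replicate 1, a higher-intensity array, was below them. The difference of 0.25 over 6 arrays (standard error 0.39) was 0.64 over the 8 lower-intensity arrays (standard error 0.15, adjusted p = 1.00 in limma, 95% interval 0.27 to 1.00) and -0.53 in the higher-intensity set.

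The other 6 genes differed by less. *Prdm1* was measured at 2.05, 1.62 and 1.63 in Foxp3Cre and at 1.33, 1.96 and 1.71 in Foxp3CreTgfbr2 f/f, a difference of -0.10 (95% interval -0.61 to 0.41). *Irf4* was measured at 3.08, 2.34 and 2.66 against 2.49, 2.56 and 2.56, a difference of -0.15 (95% interval -0.64 to 0.33). Both ranges cross between the genotypes, with Foxp3Cre replicate 1 the highest array for each gene. *Gata3* gave 2.37, 2.26 and 2.60 against 2.84, 2.69 and 2.40, a difference of 0.23 (standard error 0.17). *Rora* gave 1.72, 1.31 and 1.36 against 1.32, 1.86 and 1.65, a difference of 0.15 (standard error 0.20). For both the knockout had the highest of the 6 arrays, and the genotypes overlapped. *Bcl6* gave 1.39, 1.01 and 1.65 against 1.79, 1.84 and 1.13, a difference of 0.24 (standard error 0.26). *Nfil3* gave 3.13, 2.91 and 2.16 against 1.91, 3.53 and 3.07, a difference of 0.10 (95% interval -0.95 to 1.16). These genotypes overlapped as well. The lower-intensity arrays gave a difference near 0 for *Prdm1* (95% interval -0.95 to 0.95), -0.15 for *Irf4*, 0.23 for *Gata3*, 0.24 for *Rora*, 0.29 for *Bcl6* and 0.28 for *Nfil3*.

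**Figure D2:**
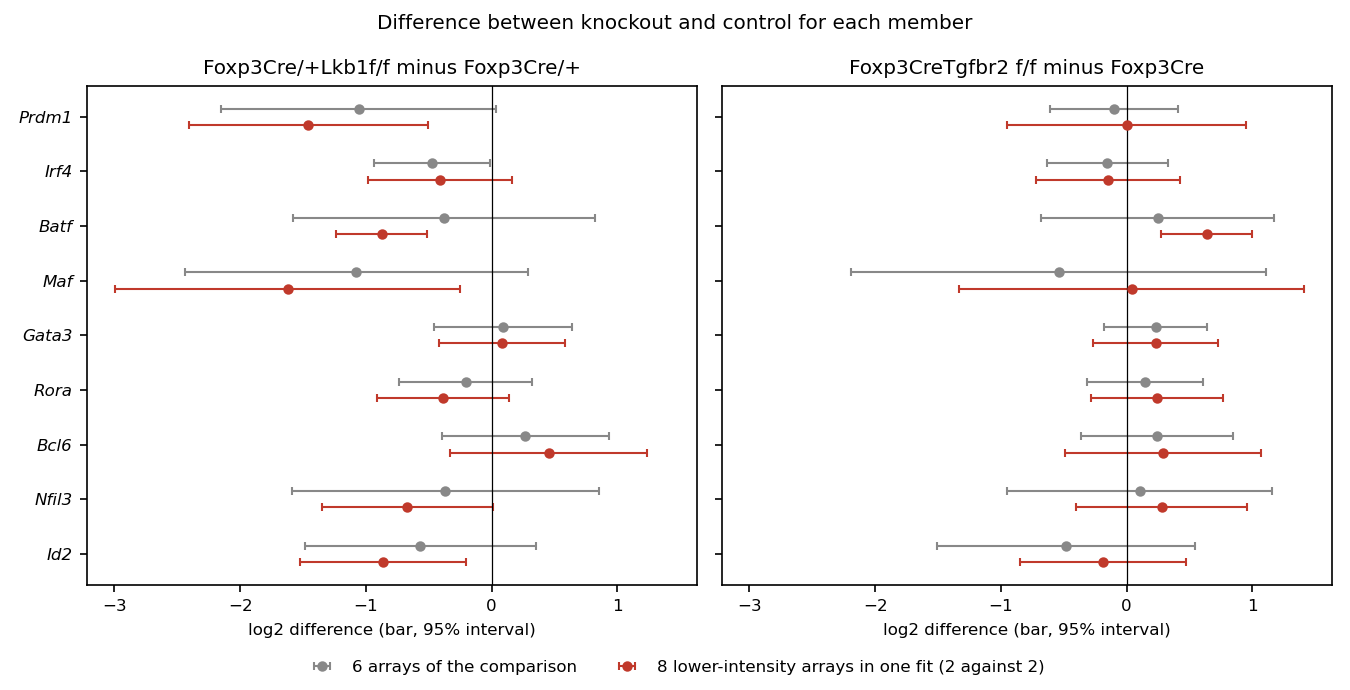
Log2 difference between knockout and control for each gene with its 95% interval from limma, for the loss of Lkb1 (left) and of the TGF-β receptor chain (right); grey, 6 arrays of the comparison; red, the 8 lower-intensity arrays in 1 fit. In the red values Batf lies at -0.87 on the left and 0.64 on the right, and Prdm1 at -1.46 and near 0.

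As a group, the members had a median difference of -0.38 in the loss of Lkb1, where the median of all transcript clusters was -0.01. At 1.5-fold or more lower were 2 of 9, *Prdm1* and *Maf*, against 2.2% of all and 2.72% of those at or above the array median, and none was 1.5-fold higher (1.53%). On the lower-intensity arrays the median was -0.67, 7 of 9 again had a lower mean (51.4% of all), and 5 of 9 were 1.5-fold or more lower, *Maf*, *Prdm1*, *Batf*, *Id2* and *Nfil3*, against 4.0% of all and 5.16% of those at or above the array median. None was 1.5-fold higher (2.17%). All 7 with a lower mean were also without overlap between 2 and 2 arrays, which 14.9% of all transcript clusters were. At an unadjusted p under 0.05 were 4 of them against 5.87%, and none after adjustment (0.00484% of all, namely *Itgb1* and 1 cluster with no symbol). The members were chosen with results of these arrays known, so the counts describe and do not test.

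In the loss of the TGF-β receptor chain the median was 0.10 over 6 arrays, with none of the 9 at 1.5-fold in either direction (0.692% of all lower, 0.858% of those at or above the array median, and 1.49% of all higher). On the lower-intensity arrays it was 0.23, with 3 of 9 at a lower mean (45.4% of all). *Batf*, 1 of 9, was 1.5-fold higher there against 2.26% of all and had an unadjusted p under 0.05 against 2.97%, and none was 1.5-fold lower (1.47% of all and 1.59% of those at or above the array median). *Batf* and *Gata3* were then without overlap in the higher direction, which 19.6% of all transcript clusters were, and none in the lower (14.3%). *Batf* was the 1 gene of the 9 that lay below its controls in the first knockout and above them in the second on these 8 arrays, as did 3.74% of all transcript clusters.

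The difference between the effects was fitted over 12 arrays. For 8 of 9 genes it was positive, that is, the mean of Foxp3CreTgfbr2 f/f against its control lay higher than that of Foxp3Cre/+Lkb1f/f against its own, where 45.2% of all transcript clusters had a negative one. It was 0.96 for *Prdm1* (standard error 0.55), 0.63 for *Batf* (standard error 0.70) and 0.53 for *Maf* (standard error 1.00), with adjusted p = 1.00 in limma for each. Of all transcript clusters 4.31% reached a 1.5-fold difference in this direction, and *Prdm1* and *Batf* were the 2 of the 9 that did, with none in the other direction (2.61%) and none at an unadjusted p under 0.05 (0.982%). Without Foxp3Cre/+Lkb1f/f replicate 1 these 2 were at 0.42 and 0.27, short of 1.5-fold, and without its replicate 3 at 1.38 and 1.24. On the lower-intensity arrays 6 of 9 did against 7.46% of all, led by *Maf* at 1.66, *Batf* at 1.51 and *Prdm1* at 1.46. None was 1.5-fold the other way (4.67%), 1 of 9, *Bcl6*, was negative (46.4%), and *Batf* and *Prdm1* had an unadjusted p under 0.05 (5.02% of all). For *Batf* the standard error was 0.22 and the adjusted p 0.30 in limma. No transcript cluster passed in either fit (0.0%). By the labels, and on the 8 lower-intensity arrays, sex and experiment cannot be told apart in this contrast. By the sex-linked genes each labelled genotype held 2 arrays of one sex and 1 of the other.

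The genes around the members were counted next, in lists drawn up with earlier results of these data known. None of their genes passed the test in either comparison. Of all transcript clusters 53.1% had a lower mean without Lkb1 and 46.9% without the TGF-β receptor chain. On the lower-intensity arrays these shares were 51.4% and 45.4%. Of 14 measured AP-1 and IRF relatives, the partners of Batf and Irf4, 11 had a lower mean without Lkb1 (median -0.22), with *Batf3*, a dendritic cell relative of Batf, at -0.71 (standard error 0.68) and *Fosb* at -0.35 (standard error 0.51). *Batf3* stood at 0.49, 2.29 and -0.15 in Foxp3Cre/+ and at 0.62, 0.66 and -0.80 in Foxp3Cre/+Lkb1f/f. Its highest value was on Foxp3Cre/+ replicate 2, the array with the high macrophage signal. In the lower-intensity set 10 of the 14 relatives were lower (median -0.07), but this count hung on single arrays. Without Foxp3Cre/+Lkb1f/f replicate 2 it was 3 of 14 (median 0.21), and without its replicate 1 it was 11 of 14 (median -0.61). Without Foxp3Cre/+ replicate 2 it was 7 of 14. After loss of the TGF-β receptor chain 11 of 14 were lower (median -0.11), and *Fosl2*, a Fos family gene, stood at 0.96 (standard error 0.38) and *Jun* at -0.80 (standard error 0.39). The lower-intensity arrays had 8 of 14 lower (median -0.07). With 1 of them left out it ran from 4 of 14 (median 0.14, without Foxp3Cre replicate 1) to 11 of 14 (median -0.23, without Foxp3Cre replicate 2). The 6 E protein and Id genes, the binding partners and relatives of Id2, had medians of -0.05 and -0.04, and of -0.03 and 0.01 on the lower-intensity arrays, with no gene at 1.5-fold. The largest in size were *Id1* at -0.15 and *Id3* at -0.08 without Lkb1 and *Tcf3* at -0.09 and *Tcf4* at -0.08 in the other comparison. Among 14 relatives of the other members 13 were lower without Lkb1 (median -0.18), with the circadian receptor gene *Nr1d1* at -0.86 (standard error 0.20) and *Hlf*, a basic leucine zipper gene, at -0.65 (standard error 0.30). In the other comparison 10 of 14 were lower (median -0.10), with *Gata1* at -0.61 and *Nr1d2* at -0.28. Of the 14, 10 and 9 were lower on the lower-intensity arrays in the 2 comparisons (medians -0.17 and -0.06), with *Nr1d1* at -1.08 without Lkb1 and *Gata1* at -0.96 without the TGF-β receptor chain.

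Genes of effector Treg cells that were listed as targets of the members were counted apart. Whether each is a target in these cells was not tested. The paper already reports several of them, such as *Itgae* and *Ccr6*, as reduced without Lkb1 in these profiles, so the counts describe and do not test. Of 21 measured, 18 had a lower mean without Lkb1 (median -0.70) against 53.1% of all transcript clusters. At 1.5-fold or more lower were 13 (2.2% of all) and higher 1 (1.53%), and 6 had an unadjusted p under 0.05 (1.12%). *Itgae*, which encodes the CD103 chain of an integrin for epithelium and is induced by TGF-β, stood at 4.65, 4.64 and 4.39 in Foxp3Cre/+ and at 0.65, 2.28 and 2.13 in Foxp3Cre/+Lkb1f/f. Every knockout array was below every control, by a mean of -2.87 (standard error 0.43, adjusted p = 1.00 in limma). *Klrg1*, a receptor of differentiated effector cells, differed by -1.71 (standard error 0.95). Without the TGF-β receptor chain 16 of 21 were lower (median -0.13, against 46.9% of all lower) and 3 were 1.5-fold lower (0.692%), with *Itgae* at -2.06 (standard error 0.47) and the chemokine receptor gene *Ccr6* at -0.67 (standard error 0.31). On the lower-intensity arrays 17 of 21 were lower and 13 at 1.5-fold lower without Lkb1 (median -0.92), but 7 at 1.5-fold lower (median -0.47) when Foxp3Cre/+Lkb1f/f replicate 1 was left out. Without the TGF-β receptor chain the tally there was the reverse of that over 6 arrays, with 9 lower and 12 higher (median 0.05), 3 at 1.5-fold lower (1.47% of all) and 4 at 1.5-fold higher (2.26%).

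Genes of resting Treg cells had a median of 0.03 over 10 measured genes without Lkb1, 5 lower and 5 higher. It was 0.39 on the lower-intensity arrays, with 8 of 10 higher, and the genome organizer gene *Satb1* at 0.60 (standard error 0.23) and *Bach2*, a repressor that holds back effector genes, at 0.70 (standard error 0.36). Foxp3Cre/+Lkb1f/f replicate 1 set that direction. Without it 4 of 10 were higher (median -0.07), with *Satb1* at 0.28 and *Bach2* at 0.07. In the loss of the TGF-β receptor chain the median was -0.29 over 6 arrays and -0.55 over the 8, with *Klf2* at -0.49 and *Ccr7* at -0.47 over 6 arrays. Of the 8 genes of follicular T cells that go with Bcl6, 5 were lower without Lkb1 (median -0.01) and 2 without the TGF-β receptor chain (median 0.18), *Il6ra* being largest in size in both at -0.63 and -0.53, followed by *Pdcd1* at 0.38 in the first and *Ascl2* at 0.33 in the second. In the lower-intensity set 6 of 8 were lower in the first (median -0.21) and 1 of 8 in the second (median 0.19). Of the 12 genes of Treg identity 6 and 4 were lower (medians -0.02 and 0.11). *Nrp1*, a coreceptor on Treg cells of thymic origin, gave -1.10 and -0.55, and *Ikzf4*, a Treg family zinc finger gene, gave -0.49 and -1.04. The lower-intensity arrays had 7 and 4 of 12 lower, with *Nrp1* at -1.46 and -0.29 and *Ikzf4* at -0.03 and -1.63.

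**Figure D3:**
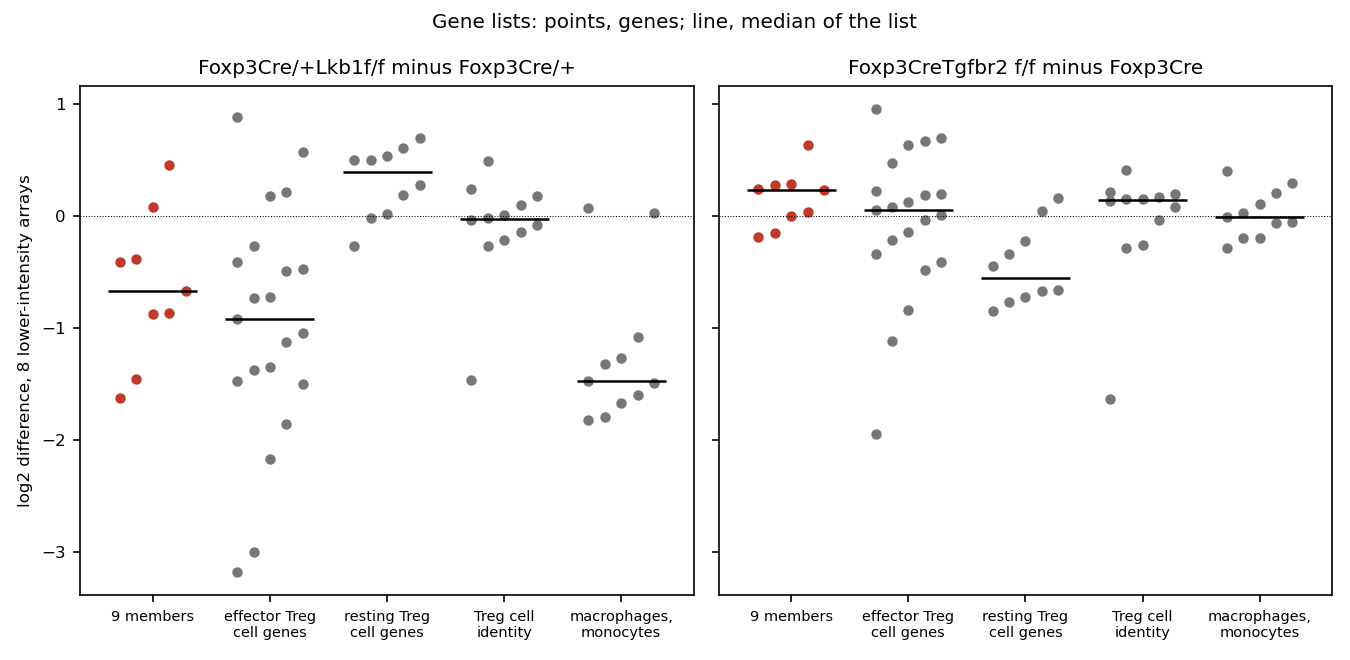
Log2 differences over the 8 lower-intensity arrays for 5 gene lists, for the loss of Lkb1 (left) and of the TGF-β receptor chain (right); each point is a gene, the line is the median of the list. On the left the members have a median of -0.67, effector genes listed as their targets -0.92, resting genes 0.39, Treg identity genes -0.02 and macrophage genes -1.48, and on the right the medians are 0.23, 0.05, -0.55, 0.14 and -0.01.

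Markers of other cells also differed between the genotypes. Of 11 measured macrophage and monocyte genes 10 had a lower mean without Lkb1 (median -0.87), and *Hmox1* and *Csf1r* differed by -1.17 and -1.12. Their summed signal ran from 4.27 to 7.54 in Foxp3Cre/+, from 4.44 to 5.28 in Foxp3Cre/+Lkb1f/f, from 3.63 to 4.13 in Foxp3Cre and from 3.60 to 4.07 in Foxp3CreTgfbr2 f/f, and no marker of the list was below the median on all arrays. In the lower-intensity set 9 of 11 were 1.5-fold lower (median -1.48), and 1 of 11 (median -0.32) without Foxp3Cre/+ replicate 2, the array at 7.54. Without that array the differences of *Prdm1*, *Irf4*, *Batf* and *Maf* on the lower-intensity arrays were -1.33, -0.31, -0.95 and -1.47. Those of *Id2*, *Nfil3*, *Rora*, *Bcl6* and *Gata3* were then -0.46, -1.01, -0.61, 0.67 and -0.085, with *Gata3* turned from 0.08 and *Id2* moved from -0.86. The part of macrophage RNA in the members' differences was not tested.

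The B cell list held genes that varied beside *Batf*. Its summed signal was 2.90, 3.11 and 4.68 in Foxp3Cre/+ and 2.52, 2.53 and 4.35 in Foxp3Cre/+Lkb1f/f, and 3.00, 2.95 and 2.92 in Foxp3Cre and 2.92, 3.74 and 3.24 in Foxp3CreTgfbr2 f/f. It was lowest on the 2 arrays where *Batf* was lowest. In the lower-intensity set *Cd22*, a B cell receptor inhibitor, differed by -0.88 without Lkb1 and 1.49 without the TGF-β receptor chain, and *Cd79b* by -0.83 and -0.04. The list as a whole did not follow, and the part of B cell RNA in the *Batf* differences was not tested. All 7 measured B cell genes had a lower mean over 6 arrays without Lkb1 (median -0.37), with *Cd79b* at -0.71, but 3 of 7 on the lower-intensity arrays (median 0.03), and 3 of 7 in the other comparison, with *Cd22* at 0.79. The other marker lists (plasma, dendritic, natural killer, group 2 innate lymphoid and mast, CD8 T, neutrophil and erythroid cells) had medians between -0.26 and 0.05 in the 2 comparisons over 6 arrays each, with 1 erythroid and 2 CD8 T cell genes measured. The summed natural killer signal was 4.01, 5.27 and 4.36 in Foxp3Cre/+ and 3.56, 3.92 and 3.84 in Foxp3Cre/+Lkb1f/f, without overlap. *Tyrobp* differed by -1.08 and *Gzma* by -0.89, and 5 of 7 genes were lower. *Tyrobp* was highest, at 4.71, on Foxp3Cre/+ replicate 2, the array with the high macrophage signal. *Klrb1c* went the other way without overlap, at -0.74, -0.58 and -0.53 in Foxp3Cre/+ and -0.49, -0.45 and -0.35 in Foxp3Cre/+Lkb1f/f. It and *Klre1* were below the array median on all arrays. On the lower-intensity arrays 3 of 7 genes were lower (median 0.06). The part of natural killer cell RNA in the members' differences was not tested.

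The members did not all vary together. After the mean of each intensity set was subtracted, Pearson's r over the 12 arrays was 0.94 between *Rora* and *Nfil3* and 0.90 between *Prdm1* and *Maf*, the highest of 36 pairs, and lowest, at -0.49, between *Gata3* and *Id2*. On the lower-intensity arrays the first 2 were 0.95 and 0.94. *Irf4* and *Batf*, partners on DNA, had an r of -0.13. These values are descriptive, since genes of an array share its RNA and hybridization. Of 18296 genes, the one most like *Prdm1* was *Myo3b* (r = 0.97), like *Batf* was *Pear1* (0.99), like *Maf* was *Matk* (0.97), like *Irf4* was *Cebpd* (0.88) and like *Id2* was *Ell2* (0.90). For *Gata3*, *Rora*, *Bcl6* and *Nfil3* it was *Cir1* (0.91), *Acnat1* (0.95), *Cox7b2* (0.95) and *Ccl7* (0.95). *Cebpd*, *Acnat1* and *Cox7b2* lay below the array median on average.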

How the data were processed

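RNA of sorted mouse Treg cells was measured on 12 Affymetrix Mouse Genome 2.0 arrays. The authors processed them with GeneSpring GS and deposited log2 values of 41345 transcript clusters (1.94 to 14.00). Neither summarization nor normalization is named in the sources used here. The step between array medians shows that arrays were not brought to 1 distribution. The number of arrays limits the precision. Gene symbols came from GEO's platform table and were brought up to date by Entrez ID in RefSeq (GRCm38.p6): 23521 transcript clusters had 1 symbol, 1820 several and 16004 none, and the brightest cluster of a gene was used.

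Each array was centred on its median. Knockout and control were compared with limma 3.58.1 in R 4.3.3 (lmFit, eBayes), adjusted by Benjamini-Hochberg over all clusters, and by two-sided exact permutation tests. Arrays were called higher-intensity above a median of 6. The fit of the 8 lower-intensity arrays (4 group means in 1 model), and that fit without each array, were added after the data were seen. p-values measure only how the labelled replicates spread, which may be technical in part. Same-numbered arrays had correlated deviations in the Lkb1 experiment (r = 0.39, 0.30 and 0.74, the last a pair of higher-intensity arrays) and not in the Tgfbr2 experiment (-0.52, 0.23 and -0.57), so the replicate number was tried as a block. Differently numbered arrays correlated as much, up to 0.45 in the first and 0.72, between higher-intensity arrays, in the second. Summed marker signals are log2 of the summed linear values over the array median. Members and gene lists were chosen with earlier results of these data known. Genes named are the 9 members, the 2 of each list with the largest difference in a comparison, the deleted and sex-linked genes, and the gene most like each member. *Foxp3*, *Itgb1*, *Klrb1c*, *Klre1* and the values over the 8 arrays were chosen after being seen. The fits were checked on simulated data with 100 shifted transcript clusters. Of shifts of 1 unit, 1% (Lkb1) and 23% (Tgfbr2) passed the adjusted threshold over 6 arrays. Of shifts of 2 units, 48% and 73% did. In the fit of the 8 lower-intensity arrays it was 21% and 19% for 1 unit, and 61% and 78% for 2 units. A gene that did not pass is therefore not shown to be unchanged. Other settings were the deposited scale, quantile normalization, blocks, a trend prior, array weights, filters, the methods' t-test and leaving out arrays.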

Additional observations from a re-analysis of the deposited data

Results flagged for a closer look

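*Batf* stood out because its arrays moved in opposite directions in the 2 experiments on the 8 lower-intensity arrays. Both Foxp3Cre/+Lkb1f/f arrays (2.06 and 2.26) were below both Foxp3Cre/+ arrays (3.11 and 2.96), and both Foxp3CreTgfbr2 f/f arrays (3.78 and 3.71) were above both Foxp3Cre arrays (3.22 and 3.00). The difference between the effects was 1.51 (standard error 0.22), which did not pass the test (adjusted p = 0.30 in limma, rank 31 of 41345 by p). Over all 12 arrays it was 0.63 and the genotypes overlapped. The 4 arrays left out went the other way, with 0.61 in the Lkb1 and -0.53 in the Tgfbr2 experiment, and are those whose sex-linked genes went against their labels. Each genotype holds 3 arrays, too few for a test of single outlying arrays.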

How the results depend on the processing

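No member passed the adjusted threshold in any setting that gave a test. There were 603 values of single members under another setting, among them the 1 against 1 values, which had no test and could not pass. Of the 603, 45 had the opposite sign, 32 of them where an array was left out. Not all of the 603 could turn. The blocks, the trend prior, the fit of all arrays in 1 model, the cluster filters and the methods' t-test kept the difference of the main fit. Between the higher-intensity arrays alone (1 against 1, no test) the Lkb1 difference turned to 0.61 for *Batf*, 0.022 for *Maf*, 0.15 for *Rora*, -0.10 for *Bcl6*, 0.24 for *Nfil3* and 0.023 for *Id2*, and the Tgfbr2 difference to -0.53 for *Batf*, -0.042 for *Rora* and -0.25 for *Nfil3*. Over the lower-intensity arrays, in either fit, the Tgfbr2 difference of *Maf* turned to 0.039. The difference between the effects turned to -0.11 for *Gata3* with array weights and to -0.011 for *Id2* with quantile normalization. The cause was not tested.

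Leaving out 1 of the 6 arrays gave Lkb1 differences of -0.047 to 0.27 for *Gata3*, -0.92 to 0.079 for *Nfil3*, -0.37 to -0.013 for *Rora* and 0.057 to 0.48 for *Bcl6*. The Tgfbr2 differences ran from -0.25 to 0.069 for *Prdm1*, -0.33 to 0.040 for *Irf4*, -0.0095 to 0.72 for *Batf*, -0.99 to 0.32 for *Maf*, -0.25 to 0.57 for *Nfil3* and -0.83 to 0.011 for *Id2*. The differences between the effects, 1 of 12 arrays left out, ran from 0.42 to 1.38 for *Prdm1*, 0.27 to 1.24 for *Batf*, -0.16 to 1.39 for *Maf*, -0.034 to 0.28 for *Gata3*, -0.24 to 0.20 for *Bcl6* and -0.31 to 0.58 for *Id2*. In the fit of the 8 lower-intensity arrays the leave-out differences ran from -0.15 to 0.31 (Lkb1) for *Gata3* (-0.085 without Foxp3Cre/+ replicate 2) and, for Tgfbr2, from -0.22 to 0.22 for *Prdm1* (0.12 without Foxp3CreTgfbr2 f/f replicate 3), -0.52 to 0.22 for *Irf4*, -0.011 to 0.090 for *Maf* (0.081 without Foxp3Cre replicate 1), -0.071 to 0.65 for *Bcl6* and -0.39 to 0.0094 for *Id2*.

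The count of transcript clusters past the adjusted threshold for the loss of Lkb1 went from 0 to 2 over the 8 lower-intensity arrays, and from 0 to 79 across fits that left out 1 array (79 without Foxp3Cre/+ replicate 1 and 5 without Foxp3Cre/+Lkb1f/f replicate 2, both from the 8 arrays). With an unadjusted p under 0.05 it was 462 with 1 member, and at 1.5-fold either way 1541 with 2 members. The unadjusted count was 98 with 0 members on the deposited scale, 520 with 0 members after quantile normalization and 3463 with 4 members under array weights, where 3187 with 4 members were at 1.5-fold. For the loss of the TGF-β receptor chain these counts were 706 and 904, with 0 members. The methods' t-test gave 675 and 902 at its threshold of 0.05 and 0 after Benjamini-Hochberg adjustment in both. With the replicate number as a block 1483 had an unadjusted p under 0.05 in the Lkb1 and 495 in the Tgfbr2 experiment, the members being *Prdm1* and *Irf4* in the first (differences -1.06 and -0.47, as without the block), and the block changed no adjusted call. Levels were not ordered between members, because probes of different genes cannot be set against each other.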
